A study of Mus musculus with 24 samples.

Results

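Astrocytes and tanycytes are the glial cells of the hypothalamus that this account is about, followed through 31 genes that mark them or work in them. A gene entered when the platform annotation gave its symbol, and no other, to a probe set, and where several probe sets carried the symbol the one with the highest mean over the 24 arrays was used. All 31 listed genes were found, out of 19937 genes measured in this way. They fall into 19 astrocyte genes and 12 genes of tanycytes and radial glia. RNA of the whole hypothalamus was measured on Affymetrix Mouse Gene 1.0 ST arrays in male mice of the inbred strains BPH/2J, which is hypertensive, and BPN/3J, which is normotensive. There were 6 mice, each on its own array, in every group: 26-week-old BPH/2J, 6-week-old BPH/2J, 26-week-old BPN/3J and 6-week-old BPN/3J. Tissue was taken at the daily peak of blood pressure, and no group received a treatment. The strains differ at many loci besides those that set blood pressure, so a strain difference cannot be told apart from a difference in other parts of the genome.

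Astrocytes take up glutamate and potassium released by neurons, turn glutamate into glutamine, supply lipids, and are joined to each other by gap junctions. Tanycytes line the floor and lower walls of the third ventricle, send long processes into the hypothalamus, carry many features of the radial glia of the embryo, and convert thyroid hormone into its active form in this region. Their numbers and their RNA content vary between hypothalamic regions. Fewer cells of a type and less RNA per cell cannot be told apart in RNA of the whole tissue.

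Values are log2 expression values, so a difference of 1 is a change by a factor of 2. Array medians lay between 5.89 and 6.09. Of the 12 hypothalamus markers 11 were measured, and their mean was 8.13 ± 0.29 in 26-week BPH/2J and 8.62 ± 0.32 in 6-week BPH/2J, against 7.65 ± 0.41 in 26-week BPN/3J and 7.96 ± 0.28 in 6-week BPN/3J (SD, n = 6 each). Some arrays stood apart. On the first principal component of the 26-week arrays, which held 41.9% of their variance, replicates 5 and 6 of both strains scored 20.95 to 28.4, and the other 26-week arrays scored -21.9 to 0.14; the labels give no reason for this split. The mean of 16 thalamus markers was 7.42 to 9.14 in 6-week BPH/2J, against 9.14 to 9.51 in 6-week BPN/3J, and was 9.13 to 9.38 in 26-week BPH/2J and 8.65 to 9.52 in 26-week BPN/3J. Among the 6-week BPH/2J arrays, replicate 2 alone had a thalamus marker mean of 9.14, close to the lowest BPN/3J array.

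A gene was called changed when its adjusted p in limma, Benjamini-Hochberg over the 19937 genes, was under 0.05. At 26 weeks 1 of the 31 genes was called between BPH/2J and BPN/3J and was higher in BPH/2J, where 2.67% of all genes were called, 1.32% higher and 1.34% lower. At 6 weeks 3 of the 31 were called and were higher in BPH/2J, where 7.42% of all genes were called, 2.99% higher and 4.42% lower. With age, 8 of the 31 were called in BPH/2J, all of them lower at 26 than at 6 weeks, where 16.9% of all genes were called, 8.64% lower and 8.23% higher. In BPN/3J 6 were called, 5 lower and 1 higher at 26 weeks, where 12.3% of all genes were called, 7.66% lower and 4.6% higher. The shares of the 31 genes called were 3.23%, 9.68%, 25.8% and 19.4% in the same order. The arrays of the groups compared did not overlap for 1, 2, 2 and 4 of the 31, against 1.75%, 5.44%, 4.05% and 4.57% of all genes. Between the strains the 31 genes had a median difference of 0.05 at 26 weeks and 0.00 at 6 weeks, against 0.01 for all genes at both ages. Between the ages their median difference was -0.07 in BPH/2J and -0.04 in BPN/3J, against -0.03 for all genes in both strains. No member was called for the strain by age interaction, the difference between the strain differences at the ages, where limma called 0.0301% of all genes (0.00502% higher and 0.0251% lower). For it 2 of the 31, Gpr50 and Aldh1l1, had an unadjusted p under 0.05, against 2160 of the 19937 genes. The lowest adjusted p of a member was 0.357. Fits without the 26-week replicates 5 and 6, given below for single genes, were added after seeing the data. They called 39.3% of all genes for age in BPH/2J and 33.6% for age in BPN/3J. Between the strains they called 2.69% at 26 weeks and 12.3% at 6 weeks.

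**Figure D1:**
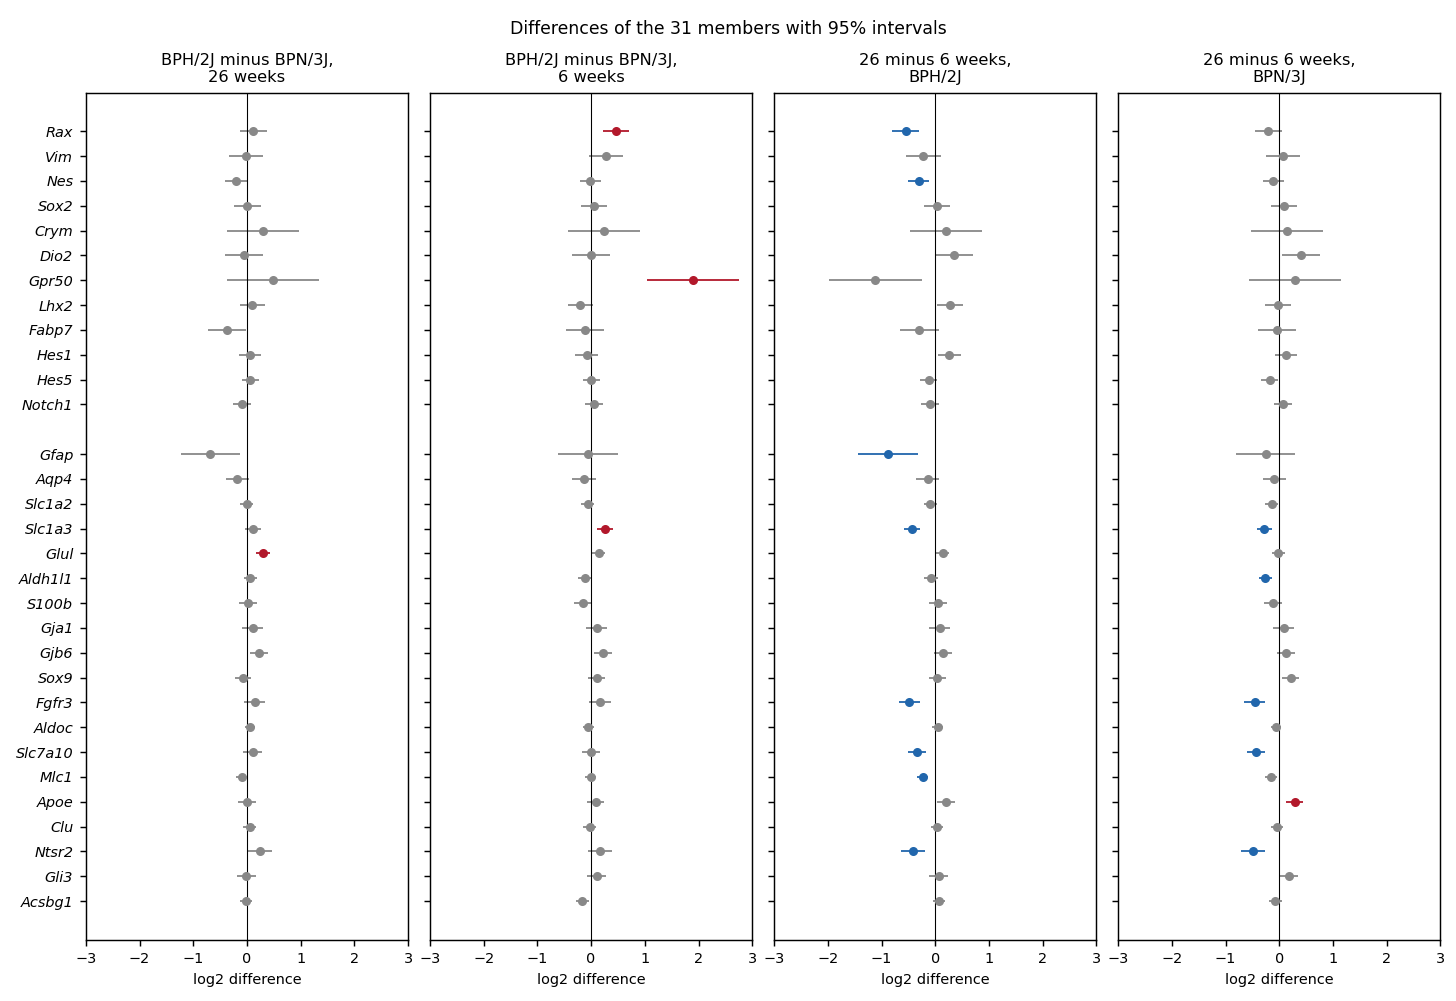
Log2 differences of the 31 genes (points) with 95% confidence intervals (lines) for strain at 26 weeks, strain at 6 weeks, age in BPH/2J and age in BPN/3J; tanycyte and radial glia genes stand above the gap and astrocyte genes below it, with red for called higher, blue for called lower and grey for not called. Gpr50 at 6 weeks is the widest of the called strain differences at 1.90, and the called age differences other than Apoe lie left of 0.

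Gpr50, an orphan receptor related to the melatonin receptors and known in mice as a gene of tanycytes and the dorsomedial hypothalamus, had the largest strain difference of the 31 genes. At 6 weeks its lowest, median and highest values were 6.97, 7.98 and 8.53 in BPH/2J, against 5.18, 5.76 and 6.98 in BPN/3J. The groups overlapped only through BPH/2J replicate 2 and BPN/3J replicate 4. The difference of 1.90 ± 0.42 (SE, n = 6 each), a 3.72-fold higher level in BPH/2J, had an adjusted p of 0.00426 in limma. At 26 weeks the values were 5.52, 6.96 and 7.48 in BPH/2J, against 4.74, 6.83 and 7.22 in BPN/3J, and the difference of 0.49 ± 0.42 was not called (adjusted p = 0.726). Replicates 5 and 6 were the 2 lowest arrays of each 26-week group, at 6.33 and 5.52 in BPH/2J and at 4.86 and 4.74 in BPN/3J. Of all values of the 31 genes, that of Gpr50 in 26-week BPN/3J replicate 6 was the only one not above the median of the unnamed probe sets on its array. That median was 5.25, the highest of the 24 arrays, against 4.60 to 4.85 on the others. With age the difference was -1.11 ± 0.42 in BPH/2J (adjusted p = 0.067) and 0.30 ± 0.42 in BPN/3J (adjusted p = 0.669). In BPH/2J limma called it lower without 6-week replicate 2 (-1.29, adjusted p = 0.0359), with only the groups compared (adjusted p = 0.0252), with array weights (-0.91, adjusted p = 0.0395) and with the choroid plexus marker mean as a covariate (-1.30, adjusted p = 0.0160). The replicate number as a block called it too, and leaving out any other single array did not. It was not called with the mean of all probe sets, centred arrays, a filter on dim genes, a trended robust prior or the thalamus covariate. A term for the 26-week replicates 5 and 6 did not call the age difference in BPH/2J either. Without the 26-week replicates 5 and 6 it was -0.70 ± 0.29 in BPH/2J (adjusted p = 0.0636) and 1.03 ± 0.29 in BPN/3J, which limma then called (adjusted p = 0.00916). The interaction was -1.41 ± 0.59 (adjusted p = 0.357) with all arrays and -1.73 ± 0.41 (adjusted p = 0.0909) without those 4 arrays. The 250 bases before the RefSeq start of Gpr50 are printed because this gene had the widest difference; they lie at chrX:71663417-71663666 on the plus strand of GRCm38.p6.
Gpr50: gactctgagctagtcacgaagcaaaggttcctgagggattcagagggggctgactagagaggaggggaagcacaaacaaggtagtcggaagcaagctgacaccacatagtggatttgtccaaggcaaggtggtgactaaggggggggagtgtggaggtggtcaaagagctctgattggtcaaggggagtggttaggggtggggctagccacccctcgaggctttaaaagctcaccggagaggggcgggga
No letters are in capitals because the stretch held none of 5 searched motifs on either strand: the nuclear factor I half-site TTGGCA, the SOX letters AACAAT, the RBPJ letters TGGGAA of Notch signalling, the nuclear receptor half-site AGGTCA and the STAT letters TTCNNNGAA. These stood in 12.3%, 9.42%, 21.6%, 14% and 7.02% of 32851 promoters of the same length, in that order.

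Rax, a homeobox transcription factor that marks tanycytes in the adult mouse, was the other of the 12 tanycyte and radial glia genes called between the strains. At 6 weeks its lowest, median and highest values were 5.80, 6.12 and 6.56 in BPH/2J, against 5.32, 5.73 and 5.89 in BPN/3J. At 26 weeks they were 5.30, 5.57 and 5.92 in BPH/2J, against 5.30, 5.46 and 5.81 in BPN/3J. The 6-week BPH/2J arrays were the high group, and only their lowest array, replicate 6, lay within the range of 6-week BPN/3J. The strain difference was 0.46 ± 0.12 at 6 weeks (adjusted p = 0.0166 in limma) and 0.11 ± 0.12 at 26 weeks (adjusted p = 0.802). The age difference was -0.55 ± 0.12 in BPH/2J, a 1.47-fold lower level at 26 weeks (adjusted p = 0.00323), and -0.20 ± 0.12 in BPN/3J (adjusted p = 0.271). The interaction was -0.35 ± 0.17 (adjusted p = 0.468), so the strains were not shown to differ in their age difference. Without 6-week BPH/2J replicate 5 the strain difference at 6 weeks was 0.38 (adjusted p = 0.0589), and without 6-week BPN/3J replicate 2 it was 0.39 (adjusted p = 0.0507).

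**Figure D2:**
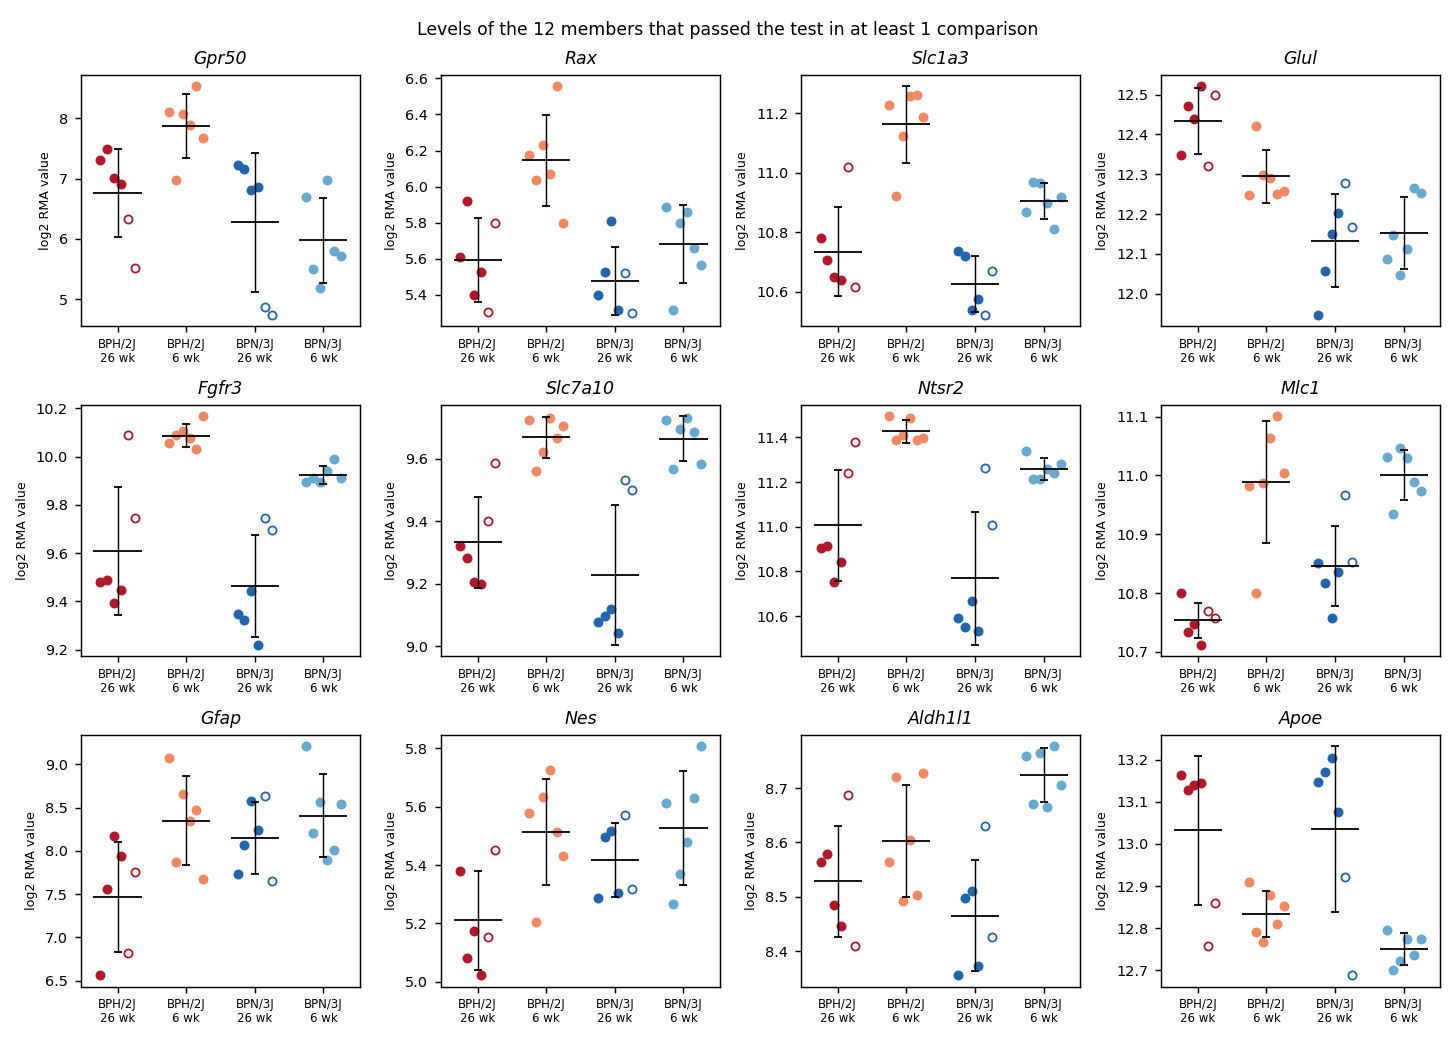
Log2 values of the 12 genes called in at least 1 comparison, with 1 point per array, a horizontal bar at the mean and whiskers of 1 SD for 26-week BPH/2J, 6-week BPH/2J, 26-week BPN/3J and 6-week BPN/3J; open points are the 26-week replicates 5 and 6. The open points lie at the bottom of the 26-week groups for Gpr50 and Apoe and at their top for Fgfr3, Slc7a10 and Ntsr2.

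Dio2 encodes the deiodinase with which tanycytes make active thyroid hormone, and Crym encodes a protein that binds that hormone. Dio2 had lowest, median and highest values of 6.89, 7.53 and 7.91 in 26-week BPH/2J and 6.49, 7.19 and 7.49 in 6-week BPH/2J. In BPN/3J the values were 7.05, 7.50 and 7.79 at 26 weeks and 6.63, 7.11 and 7.49 at 6 weeks. All 4 groups overlapped. Its age difference was 0.35 ± 0.17 in BPH/2J (adjusted p = 0.154) and 0.40 ± 0.17 in BPN/3J (adjusted p = 0.112), and its strain difference was -0.06 ± 0.17 at 26 weeks and -0.00 ± 0.17 at 6 weeks (SE, n = 6 each). Without the 26-week replicates 5 and 6, whose mean lay 0.61 below that of replicates 1 to 4 in BPH/2J and 0.40 below it in BPN/3J, limma called both age differences, at 0.55 ± 0.16 in BPH/2J (adjusted p = 0.00995) and 0.54 ± 0.16 in BPN/3J (adjusted p = 0.0139). Leaving out replicate 5 alone also sufficed, with 0.46 in BPH/2J (adjusted p = 0.0465) and 0.49 in BPN/3J (adjusted p = 0.0423). Over all alternative fits the age difference of Dio2 ran from -0.04 to 0.59 in BPH/2J and from 0.22 to 0.57 in BPN/3J. Crym had a wide spread within groups, with a pooled SD of 0.63, and was called in no comparison. The strains differed by 0.30 ± 0.32 at 26 weeks and by 0.24 ± 0.32 at 6 weeks, and the ages by 0.20 ± 0.32 in BPH/2J and by 0.14 ± 0.32 in BPN/3J. Its highest array was 26-week BPH/2J replicate 3 at 8.85, against a group median of 6.37, and this array also had the highest choroid plexus marker mean of its group at 7.68; whether the 2 values are linked was not tested.

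Of 18 thyroid hormone genes, among them Dio2 and Crym, 16 were measured. At 26 weeks 1 was called, Slco1c1, which carries thyroxine across the blood-brain barrier and was lower in BPH/2J by a difference of -0.39. At 6 weeks Slco1c1 was lower at -0.54 and the thyrotropin receptor gene Tshr was higher in BPH/2J at 0.65. Tshr was near the level of the unnamed probe sets, with means of 4.90 in BPH/2J and 4.25 in BPN/3J. The medians of those probe sets were 4.69 to 4.85 on the 6-week BPH/2J arrays and 4.71 to 4.76 on the 6-week BPN/3J arrays. With age 1 rose and 3 fell in BPH/2J, and 1 rose and 2 fell in BPN/3J. Ncoa1, a coactivator of nuclear receptors, rose in both strains (0.27 in BPH/2J and 0.23 in BPN/3J). Slc16a10, Dio3 and Thra fell in BPH/2J (-0.34, -0.39 and -0.28), and the thyroid hormone response genes Hr and Klf9 fell in BPN/3J (-0.34 and -0.29). Dio3 was also near the level of the unnamed probe sets in BPH/2J, with means of 4.62 at 26 weeks and 5.01 at 6 weeks.

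Vim and Nes encode intermediate filament proteins of radial glia and tanycytes. Nes had lowest, median and highest values of 5.02, 5.16 and 5.45 in 26-week BPH/2J, against 5.20, 5.55 and 5.73 in 6-week BPH/2J. In BPN/3J they were 5.29, 5.41 and 5.57 at 26 weeks, against 5.27, 5.55 and 5.81 at 6 weeks. The 26-week BPH/2J arrays were the lowest group and overlapped 6-week BPH/2J. The age difference was -0.30 ± 0.10 in BPH/2J (adjusted p = 0.0299 in limma) and -0.11 ± 0.10 in BPN/3J (adjusted p = 0.456). The call in BPH/2J was lost when any of 26-week replicates 2, 3 and 4 or 6-week replicates 1, 3 and 4 was left out, with differences of -0.30 to -0.26 and adjusted p of 0.0590 to 0.0854. Vim was not called; its age difference was -0.22 ± 0.15 in BPH/2J and 0.07 ± 0.15 in BPN/3J.

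The remaining tanycyte and radial glia genes are Sox2, a transcription factor of neural stem cells and glia; Lhx2, a transcription factor needed for tanycyte identity in mice; Fabp7, a fatty acid binding protein of radial glia; the receptor Notch1; and the Notch target genes Hes1 and Hes5. None was called in any of the 5 comparisons. Their strain differences ran from -0.37 (Fabp7) to 0.10 (Lhx2) at 26 weeks and from -0.20 (Lhx2) to 0.06 (Sox2 and Notch1) at 6 weeks. Their age differences ran from -0.30 (Fabp7) to 0.28 (Lhx2) in BPH/2J and from -0.18 (Hes5) to 0.12 (Hes1) in BPN/3J. Of these age differences Hes1 and Lhx2 in BPH/2J were nearest to the threshold, at 0.26 ± 0.10 (adjusted p = 0.0747) and 0.28 ± 0.11 (adjusted p = 0.0969). Without the 26-week replicates 5 and 6 limma called both, at 0.31 and 0.24 (adjusted p = 0.0240 and 0.0318), and called Sox2 higher with age in BPN/3J at 0.27 (adjusted p = 0.0428).

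Of 24 other tanycyte genes 21 were measured. At 26 weeks 1 was called, Slco1c1, lower in BPH/2J. At 6 weeks 2 were higher in BPH/2J, the imprinted gene Mest (0.55) and the sodium-sensing channel gene Scn7a (0.95), and 2 were lower, the peptide gene Adm (-0.68) and Slco1c1. With age Adm rose (0.53) and Mest and the collagen gene Col23a1 fell (-0.66 and -0.34) in BPH/2J, and Scn7a rose in BPN/3J (0.87). The list's mean was 7.36 ± 0.10 in 26-week BPH/2J, 7.35 ± 0.07 in 6-week BPH/2J, 7.38 ± 0.14 in 26-week BPN/3J and 7.26 ± 0.02 in 6-week BPN/3J (SD, n = 6 each). Of 28 other Notch pathway genes 26 were measured, and 4 fell with age in each strain. Lfng, which modifies Notch by adding sugar, fell at -0.78 in BPH/2J and -0.65 in BPN/3J, the ligand gene Jag2 at -0.55 and -0.44, and Numbl, related to the Notch inhibitor Numb, at -0.41 and -0.38. The fourth was Hes6 in BPH/2J (-0.47) and Rfng in BPN/3J (-0.34). Between strains limma called 0 of them at 26 weeks, where 3 had an unadjusted p under 0.05, and 1 at 6 weeks, Hey2, which was higher in BPH/2J (0.30).

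Slc1a3 and Slc1a2 encode the glutamate transporters of astrocytes, and Slc1a3 was the only member called in 3 comparisons. Slc1a3 had lowest, median and highest values of 10.62, 10.68 and 11.02 in 26-week BPH/2J and 10.92, 11.21 and 11.26 in 6-week BPH/2J. In BPN/3J they were 10.52, 10.62 and 10.74 at 26 weeks and 10.81, 10.91 and 10.97 at 6 weeks. The ages did not overlap in BPN/3J, and in BPH/2J 26-week replicate 5 at 11.02 was the only 26-week array above the lowest 6-week array. With age Slc1a3 differed by -0.43 ± 0.07 in BPH/2J, a 1.35-fold lower level at 26 weeks (adjusted p = 0.000336 in limma), and -0.28 ± 0.07 in BPN/3J (adjusted p = 0.0146). The strain difference was 0.11 ± 0.07 at 26 weeks (adjusted p = 0.59) and 0.26 ± 0.07 at 6 weeks (adjusted p = 0.0219), where only BPH/2J replicate 2 lay within the range of BPN/3J. The 6-week call was lost without 6-week BPH/2J replicate 1, 4 or 5 or 6-week BPN/3J replicate 5, with differences of 0.24 to 0.25 and adjusted p of 0.0547 to 0.0641.

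Slc1a2 had lowest, median and highest values of 11.57, 11.75 and 11.86 in 26-week BPH/2J and 11.78, 11.82 and 11.87 in 6-week BPH/2J, against 11.63, 11.73 and 11.90 in 26-week BPN/3J and 11.81, 11.88 and 11.96 in 6-week BPN/3J. The groups overlapped in every comparison, and none was called. Its age difference was -0.09 ± 0.06 in BPH/2J (adjusted p = 0.306) and -0.14 ± 0.06 in BPN/3J (adjusted p = 0.108). Without the 26-week replicates 5 and 6 limma called both, at -0.15 ± 0.05 in BPH/2J (adjusted p = 0.0268) and -0.18 ± 0.05 in BPN/3J (adjusted p = 0.0111); in BPN/3J leaving out replicate 6 alone gave -0.17 (adjusted p = 0.0424).

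Glul encodes glutamine synthetase, the enzyme with which astrocytes make glutamine, and was the only member called between the strains at 26 weeks. Its lowest, median and highest values at 26 weeks were 12.32, 12.46 and 12.52 in BPH/2J, against 11.95, 12.16 and 12.28 in BPN/3J. At 6 weeks they were 12.25, 12.27 and 12.42 in BPH/2J, against 12.05, 12.13 and 12.27 in BPN/3J. The strains did not overlap at 26 weeks and overlapped at 6 weeks. The strain difference was 0.30 ± 0.06 at 26 weeks, a 1.23-fold higher level in BPH/2J (adjusted p = 0.00369 in limma), and 0.14 ± 0.06 at 6 weeks (adjusted p = 0.188). The platform has another probe set for Glul, which the rule did not use. It was higher in BPH/2J at both ages, by 0.36 ± 0.06 at 26 weeks (adjusted p = 0.000437, over 21640 probe sets) and by 0.44 ± 0.06 at 6 weeks (adjusted p = 2.59e-05). Its values were 11.44 to 11.79 in BPH/2J against 11.09 to 11.38 in BPN/3J at 26 weeks, and 11.38 to 11.60 in BPH/2J against 10.98 to 11.17 in BPN/3J at 6 weeks, with no overlap at either age. The probe sets also differed for age in BPN/3J, at -0.02 ± 0.06 for the used set and 0.20 ± 0.06 for the other (adjusted p = 0.0317). Glul lies on chromosome 1. Of the 20 probe sets nearest in number to the used one, 19 belong to genes of chromosome 11, and of the 20 nearest to the other one, 18 belong to genes of chromosome 1; whether the used probe set measures another locus in part was not tested.

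Of 15 other genes of glutamate and glutamine handling 12 were measured. The neutral amino acid transporter gene Slc1a4 was higher in 6-week BPH/2J than in 6-week BPN/3J (0.40, adjusted p = 0.00087 in limma) and fell with age at -0.54 in BPH/2J and -0.36 in BPN/3J. Glud1, glutamate dehydrogenase, fell with age at -0.28 in BPH/2J and -0.22 in BPN/3J. Mdh1, a malate dehydrogenase, rose in BPH/2J (0.25) and Got2, a mitochondrial aminotransferase, fell in BPN/3J (-0.33). At 26 weeks limma called 0 of the 12 between the strains, and 2 had an unadjusted p under 0.05.

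Fgfr3, a fibroblast growth factor receptor of astrocytes; Slc7a10, a transporter of serine and other small amino acids; and Ntsr2, a neurotensin receptor found on astrocytes, were lower at 26 than at 6 weeks in both strains, as was Slc1a3. Fgfr3 had lowest, median and highest values of 9.40, 9.48 and 10.09 in 26-week BPH/2J, against 10.03, 10.08 and 10.17 in 6-week BPH/2J. In BPN/3J they were 9.22, 9.40 and 9.75 at 26 weeks, against 9.89, 9.91 and 9.99 at 6 weeks. In BPH/2J 26-week replicate 5 was the only overlapping array, and in BPN/3J the ages did not overlap. The age difference was -0.48 ± 0.10 in BPH/2J (adjusted p = 0.00176 in limma) and -0.46 ± 0.10 in BPN/3J (adjusted p = 0.00592).

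Slc7a10 had values of 9.20, 9.30 and 9.59 in 26-week BPH/2J, against 9.56, 9.69 and 9.73 in 6-week BPH/2J, and of 9.04, 9.11 and 9.53 in 26-week BPN/3J, against 9.57, 9.69 and 9.73 in 6-week BPN/3J. Its age difference was -0.34 ± 0.08 in BPH/2J (adjusted p = 0.00711) and -0.44 ± 0.08 in BPN/3J (adjusted p = 0.00328). Ntsr2 had values of 10.75, 10.91 and 11.38 in 26-week BPH/2J, against 11.39, 11.40 and 11.50 in 6-week BPH/2J, and of 10.53, 10.63 and 11.26 in 26-week BPN/3J, against 11.21, 11.25 and 11.34 in 6-week BPN/3J. Its age difference was -0.42 ± 0.11 in BPH/2J (adjusted p = 0.00942) and -0.49 ± 0.11 in BPN/3J (adjusted p = 0.00793). The ages did not overlap for Slc7a10 in BPN/3J and for Ntsr2 in BPH/2J, and in the other strain each overlapped narrowly, through 26-week BPH/2J replicate 6 for Slc7a10 and 26-week BPN/3J replicate 5 for Ntsr2.

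For these 3 genes the 26-week replicates 5 and 6 lay nearer to the 6-week level than replicates 1 to 4 did. In BPH/2J the age difference of replicates 1 to 4 was -0.63, -0.42 and -0.57 for Fgfr3, Slc7a10 and Ntsr2, and that of replicates 5 and 6 was -0.17, -0.17 and -0.12. In BPN/3J it was -0.59, -0.58 and -0.67 in replicates 1 to 4 and -0.20, -0.15 and -0.12 in replicates 5 and 6. The difference had the same sign in both sets of arrays. Without replicates 5 and 6 limma also called Ntsr2 higher in BPH/2J than in BPN/3J at 26 weeks (0.27 ± 0.05, adjusted p = 0.00621) and Ntsr2 and Fgfr3 higher in BPH/2J at 6 weeks (0.17 and 0.16, adjusted p = 0.0140 and 0.0164). With all arrays these strain differences were 0.24 for Ntsr2 at 26 weeks and 0.17 for Ntsr2 and 0.16 for Fgfr3 at 6 weeks, and were not called (adjusted p of 0.356 to 0.467). Leaving out 26-week BPN/3J replicate 5 alone also sufficed for Ntsr2 at 26 weeks, with 0.34 (adjusted p = 0.0453). At 6 weeks neither gene overlapped between the strains.

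The 250 bases before the RefSeq starts of the 4 genes that were lower at 26 weeks in both strains are printed because these genes moved together; capitals mark the STAT letters TTCNNNGAA. They are, on GRCm38.p6, chr15:8710808-8711057 on the minus strand for Slc1a3, chr5:33721474-33721723 on the plus strand for Fgfr3, chr7:35186135-35186384 on the plus strand for Slc7a10 and chr12:16653220-16653469 on the plus strand for Ntsr2.
Slc1a3: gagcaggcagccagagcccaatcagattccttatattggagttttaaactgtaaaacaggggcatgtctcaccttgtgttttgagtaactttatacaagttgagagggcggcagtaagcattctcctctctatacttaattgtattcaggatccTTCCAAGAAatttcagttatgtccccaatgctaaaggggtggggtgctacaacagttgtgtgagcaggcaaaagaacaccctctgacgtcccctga
Fgfr3: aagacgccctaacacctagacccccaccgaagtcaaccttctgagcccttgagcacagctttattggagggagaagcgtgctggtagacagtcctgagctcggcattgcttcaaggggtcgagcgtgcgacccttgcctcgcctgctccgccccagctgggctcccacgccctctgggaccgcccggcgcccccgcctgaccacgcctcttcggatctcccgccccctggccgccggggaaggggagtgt
Slc7a10: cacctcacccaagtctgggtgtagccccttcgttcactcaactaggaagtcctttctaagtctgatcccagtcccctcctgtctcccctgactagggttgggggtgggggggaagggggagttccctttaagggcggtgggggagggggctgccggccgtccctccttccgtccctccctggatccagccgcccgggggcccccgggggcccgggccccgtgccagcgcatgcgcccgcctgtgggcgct
Ntsr2: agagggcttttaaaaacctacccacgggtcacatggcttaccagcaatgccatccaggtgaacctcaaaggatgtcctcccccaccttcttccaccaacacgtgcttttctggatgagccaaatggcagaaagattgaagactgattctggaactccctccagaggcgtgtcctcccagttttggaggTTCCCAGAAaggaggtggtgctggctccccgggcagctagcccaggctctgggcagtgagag
Of the 5 motifs searched on both strands, the STAT letters stood in Slc1a3 at -96 to -88 and in Ntsr2 at -62 to -54 from the start, and the RBPJ letters TGGGAA, read on the other strand, stood in Ntsr2 at -62 to -57 inside the STAT match. Fgfr3 and Slc7a10 held none of the 5, and no motif stood in all 4. Of the 31 genes 25 had a promoter in the table, and the STAT letters stood in 3 of the 25, against 7.02% of all promoters, and the RBPJ letters in 10, against 21.6%. The nuclear factor I letters stood in 2 of the 25, the nuclear receptor letters in 5 and the SOX letters in 0, against 12.3%, 14% and 9.42% of all promoters.

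Mlc1, a membrane protein of astrocyte end-feet, and Aldh1l1, a folate enzyme used as an astrocyte marker, each fell with age in 1 strain. Mlc1 had lowest, median and highest values of 10.71, 10.75 and 10.80 in 26-week BPH/2J, against 10.80, 11.00 and 11.10 in 6-week BPH/2J, and of 10.76, 10.84 and 10.97 in 26-week BPN/3J, against 10.94, 11.01 and 11.05 in 6-week BPN/3J. Its ages met without overlapping in BPH/2J, where the highest 26-week and the lowest 6-week array both rounded to 10.8009. With age Mlc1 differed by -0.24 ± 0.05 in BPH/2J (adjusted p = 0.00333 in limma) and -0.15 ± 0.05 in BPN/3J (adjusted p = 0.0531; -0.18 and 0.0191 without 26-week replicate 5). Aldh1l1 had values of 8.41, 8.52 and 8.69 in 26-week BPH/2J, against 8.49, 8.58 and 8.73 in 6-week BPH/2J, and of 8.36, 8.46 and 8.63 in 26-week BPN/3J, against 8.66, 8.73 and 8.78 in 6-week BPN/3J. Its ages did not overlap in BPN/3J. With age Aldh1l1 differed by -0.07 ± 0.06 in BPH/2J (adjusted p = 0.431) and -0.26 ± 0.06 in BPN/3J (adjusted p = 0.0113). The interaction was -0.08 ± 0.07 for Mlc1 and 0.18 ± 0.09 for Aldh1l1 (adjusted p = 0.761 and 0.439), so neither was shown to differ between the strains in its age difference.

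Gfap encodes the intermediate filament protein of astrocytes that rises in reactive gliosis. Its lowest, median and highest values were 6.56, 7.65 and 8.17 in 26-week BPH/2J, against 7.67, 8.41 and 9.08 in 6-week BPH/2J. In BPN/3J they were 7.65, 8.15 and 8.64 at 26 weeks, against 7.90, 8.38 and 9.21 at 6 weeks. The 26-week BPH/2J arrays were the low group, with replicates 1 and 5 at 6.56 and 6.82 below every other array, and the ages overlapped in both strains. With age Gfap differed by -0.88 ± 0.27 in BPH/2J, a 1.84-fold lower level at 26 weeks (adjusted p = 0.0254 in limma), and -0.25 ± 0.27 in BPN/3J (adjusted p = 0.556). The strain difference was -0.68 ± 0.27 at 26 weeks (adjusted p = 0.242) and -0.06 ± 0.27 at 6 weeks (adjusted p = 0.952), and the interaction was -0.63 ± 0.38 (adjusted p = 0.594). The call in BPH/2J was lost without 26-week replicate 1 or 5 or 6-week replicate 1 or 3, with differences of -0.82 to -0.70 and adjusted p of 0.0512 to 0.0778. With the thalamus marker mean as a covariate the age difference of Gfap in BPH/2J was 0.02 ± 0.34 (adjusted p = 0.992). Over all alternative fits, this covariate among them, its strain difference at 6 weeks ran from -0.97 to 0.09 and its interaction from -0.76 to 0.27.

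Apoe, the main apolipoprotein made by astrocytes, was the only member called higher with age. Its lowest, median and highest values were 12.76, 13.13 and 13.16 in 26-week BPH/2J, against 12.77, 12.83 and 12.91 in 6-week BPH/2J, and 12.69, 13.11 and 13.20 in 26-week BPN/3J, against 12.70, 12.76 and 12.80 in 6-week BPN/3J. In BPN/3J 26-week replicates 1 to 5 lay above all 6-week arrays and replicate 6 lay below them. The age difference was 0.20 ± 0.08 in BPH/2J (adjusted p = 0.0905 in limma) and 0.28 ± 0.08 in BPN/3J (adjusted p = 0.0242). Leaving out any of 26-week BPN/3J replicates 1 to 4 gave 0.25 to 0.28 and adjusted p of 0.0532 to 0.0663. In BPH/2J the difference was called without 26-week replicate 5 (0.25, adjusted p = 0.0209) or replicate 6 (0.23, adjusted p = 0.0416). Without the 26-week replicates 5 and 6 of both strains, limma called 0.31 ± 0.05 in BPH/2J (adjusted p = 2.49e-05) and 0.40 ± 0.05 in BPN/3J (adjusted p = 1.72e-06). Those arrays were chosen after seeing the data and were the lowest for Apoe in each 26-week group, so leaving them out had to widen the difference.

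Aqp4, the water channel of astrocyte end-feet, had lowest, median and highest values of 9.53, 9.82 and 10.10 in 26-week BPH/2J, 9.78, 9.95 and 10.25 in 6-week BPH/2J, 9.75, 10.05 and 10.33 in 26-week BPN/3J and 9.94, 10.08 and 10.28 in 6-week BPN/3J. All 4 groups overlapped and no difference was called; the strain difference was -0.18 ± 0.11 at 26 weeks and -0.13 ± 0.11 at 6 weeks, and the age difference was -0.14 ± 0.11 in BPH/2J and -0.09 ± 0.11 in BPN/3J. The other astrocyte genes that were called nowhere are the gap junction genes Gja1 and Gjb6, the calcium-binding protein gene S100b, the transcription factor genes Sox9 and Gli3, the glycolytic enzyme gene Aldoc, the secreted chaperone gene Clu and the fatty acyl-CoA synthetase gene Acsbg1. Their strain differences ran from -0.07 (Sox9) to 0.23 (Gjb6) at 26 weeks and from -0.16 (Acsbg1) to 0.22 (Gjb6) at 6 weeks. Gjb6 had a strain difference of 0.23 ± 0.08 at 26 weeks (adjusted p = 0.161) and 0.22 ± 0.08 at 6 weeks (adjusted p = 0.11; 0.0302 with array weights). Their age differences ran from 0.04 to 0.14 in BPH/2J and from -0.12 (S100b) to 0.21 (Sox9, adjusted p = 0.0618) in BPN/3J. Without 26-week BPN/3J replicate 5 or 6 limma called Sox9 higher with age, at 0.24 and 0.26 (adjusted p = 0.0292 and 0.0192), and without 6-week BPH/2J replicate 6 it called Acsbg1 lower in BPH/2J at 6 weeks, at -0.19 (adjusted p = 0.0430). Aldoc and Mlc1 had the narrowest spread within groups of the 31 genes, with pooled SDs of 0.05 and 0.07, and Gpr50 the widest at 0.81. The median pooled SD was 0.14 for the astrocyte genes and 0.22 for the tanycyte and radial glia genes, against 0.16 for all genes.

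**Figure D3:**
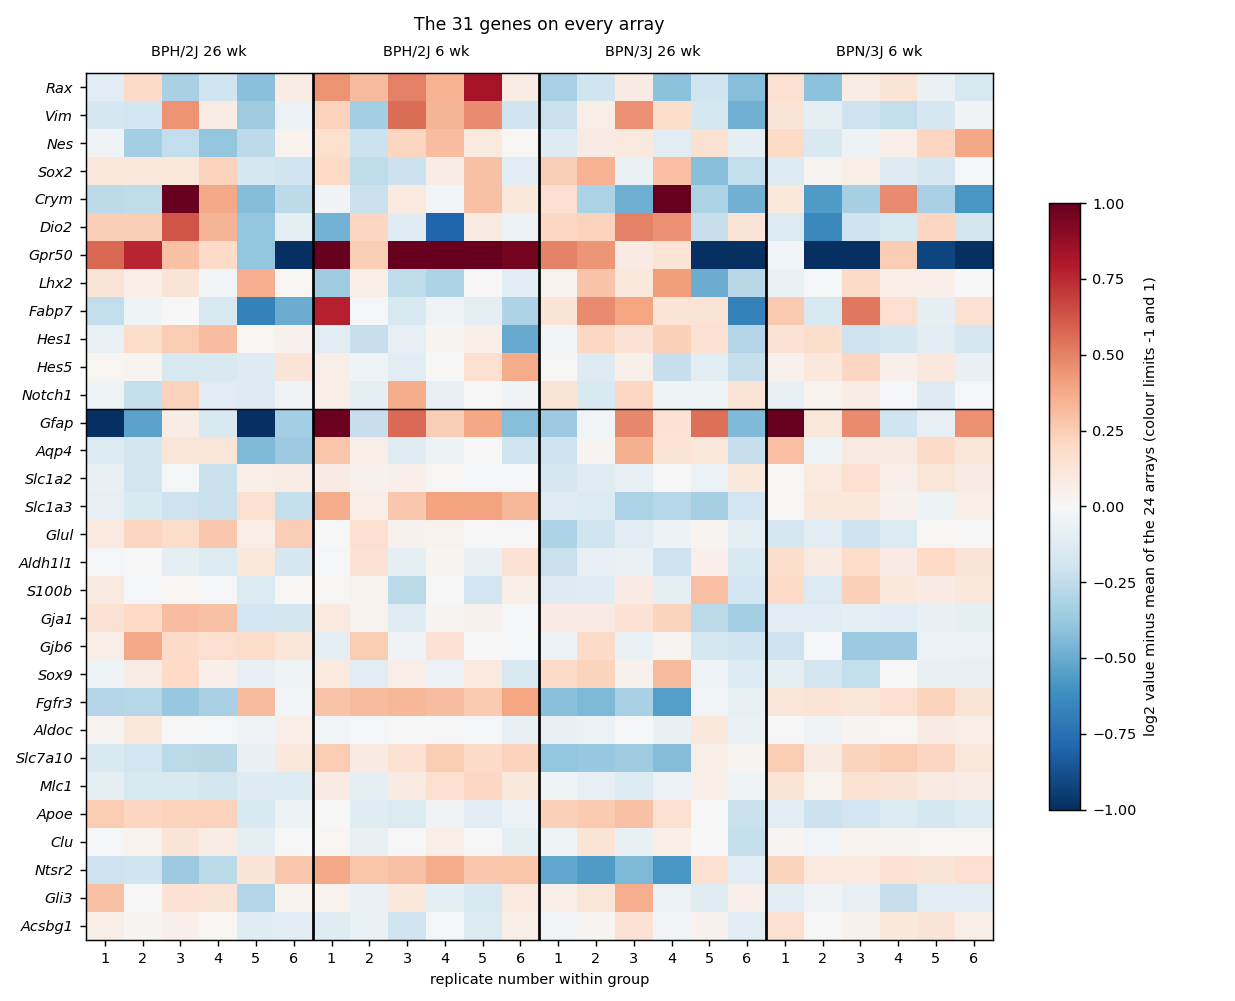
Each of the 31 genes (rows, tanycyte and radial glia genes above the line) on each of the 24 arrays (columns, by group and replicate), coloured by the log2 value minus the mean of that gene over all arrays, with the colour ending at -1 and 1. Gpr50 is low in the 26-week replicates 5 and 6 of both strains, while Fgfr3, Slc7a10 and Ntsr2 are higher there than in replicates 1 to 4.

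Of 55 other astrocyte genes 52 were measured. At 26 weeks 3 were called, all higher in BPH/2J: Etnppl, a phospholyase of ethanolamine phosphate (0.71, adjusted p = 0.00092 in limma), the lipid receptor gene S1pr1 (0.42) and the cystine transporter gene Slc7a11 (0.48). At 6 weeks 8 were higher and 5 lower in BPH/2J, among them Slc7a11 (0.85), Etnppl (0.78) and Itih3 (0.50), which were higher, and Lcat, an enzyme that esterifies cholesterol (-0.77), which was lower. With age 4 rose and 11 fell in BPH/2J, and 3 rose and 14 fell in BPN/3J. The cytokine gene Il33 had the smallest p in both strains and rose at 1.25 in BPH/2J and 0.99 in BPN/3J. Next in BPH/2J were the matrix protein gene Sparc, the glycogen phosphorylase gene Pygb and the GABA transporter gene Slc6a11, which fell (-0.55, -0.36 and -0.48). Next in BPN/3J were Gpr37l1, an orphan receptor of astrocytes, and Acsl6, a fatty acyl-CoA synthetase, which fell (-0.49 and -0.31), and Etnppl, which rose (0.62). The list had a median difference of 0.04 at 26 weeks and 0.05 at 6 weeks between the strains, and of -0.07 in BPH/2J and -0.02 in BPN/3J between the ages.

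Of 38 reactive astrocyte genes, a list that includes Gfap, Vim and Nes, 33 were measured. At 26 weeks Serpina3n, a serine protease inhibitor, was lower in BPH/2J (-1.08, adjusted p = 5.39e-06 in limma) and the matrix gene Fbln5 was higher (0.71). At 6 weeks Serpina3n was lower (-0.65) and Amigo2 (0.59) and the transcription factor gene Stat3 (0.19) were higher in BPH/2J. With age 3 rose and 5 fell in BPH/2J, among them Fbln5 (0.89), which rose, and Stat3 (-0.29), the receptor gene S1pr3 (-0.37) and the lipocalin gene Lcn2 (-0.23), which fell. In BPN/3J 0 rose and 1 fell with age, B3gnt5 (-0.28). Its means of 3.93 at 26 weeks and 4.20 at 6 weeks lay below the medians of the unnamed probe sets on the BPN/3J arrays. Those medians were 4.69 to 5.25 at 26 weeks and 4.71 to 4.76 at 6 weeks.

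**Figure D4:**
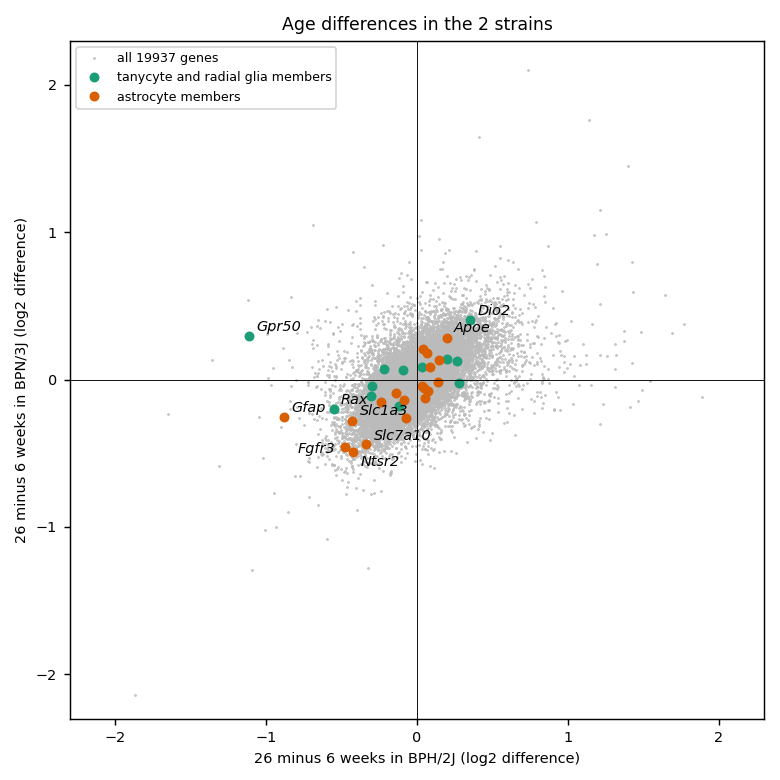
Difference between 26 and 6 weeks in BPH/2J (x axis, log2) against that in BPN/3J (y axis, log2) for all 19937 genes (grey), astrocyte genes (orange) and tanycyte and radial glia genes (green). Slc1a3, Fgfr3, Slc7a10 and Ntsr2 lie at the lower left, below 0 in both strains, and Gpr50 lies at -1.11 in BPH/2J and 0.30 in BPN/3J.

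The age differences of the strains rest on separate arrays. Over the 31 genes they had the same sign in 22, which is 71.0%, against 71.6% of all genes, and a Pearson correlation of 0.43 across genes, against 0.56 for all genes. The strain differences at the ages had the same sign in 20 of the 31, which is 64.5%, against 55.9% of all genes, with a correlation of 0.53, against 0.43 for all genes. Genes are not independent replicates, and both groups of a strain share that strain's genome. The mean of the 19 astrocyte genes was 10.18 ± 0.04 in 26-week BPH/2J and 10.30 ± 0.04 in 6-week BPH/2J, against 10.16 ± 0.07 in 26-week BPN/3J and 10.27 ± 0.04 in 6-week BPN/3J (SD, n = 6 each). The mean of the 12 tanycyte and radial glia genes was 7.44 ± 0.19 in 26-week BPH/2J and 7.57 ± 0.14 in 6-week BPH/2J, against 7.41 ± 0.25 in 26-week BPN/3J and 7.36 ± 0.11 in 6-week BPN/3J. The astrocyte mean did not overlap between the ages in BPH/2J, where it was 10.12 to 10.24 at 26 weeks and 10.26 to 10.37 at 6 weeks, and overlapped in BPN/3J at 10.09 to 10.25 and 10.22 to 10.33.

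Many of the 31 genes differed between the 26-week replicates 5 and 6 and replicates 1 to 4 in the same direction in both strains, as did most of all genes. Of the 31, 17 were lower and 7 higher in replicates 5 and 6 in both strains, which is 54.8% and 22.6%, against 36.6% and 37.2% of all genes; these were 8 and 1 of the 12 tanycyte and radial glia genes and 9 and 6 of the 19 astrocyte genes. Gpr50 was lower there by a difference of -1.25 in BPH/2J and -2.21 in BPN/3J, Crym by -0.87 and -0.50, Fabp7 by -0.47 and -0.55, Gja1 by -0.42 and -0.43, Apoe by -0.34 and -0.34, and Sox2 by -0.33 and -0.54. Without those 4 arrays limma called 2 of the 31 between the strains at 26 weeks and 6 at 6 weeks, and 14 between the ages in each strain, where it called 2.69%, 12.3%, 39.3% and 33.6% of all genes. Of the 14 in BPH/2J 5 were higher at 26 weeks (Gja1, Dio2, Lhx2, Hes1 and Apoe) and 9 lower, and of the 14 in BPN/3J 7 were higher (Gja1, Sox9, Sox2, Dio2, Gpr50, Apoe and Gli3) and 7 lower. In replicates 1 to 4 the choroid plexus marker mean was 5.65 to 7.68 in BPH/2J and 6.02 to 7.96 in BPN/3J, against 5.59 and 5.79 in BPH/2J and 5.52 in both BPN/3J arrays among replicates 5 and 6; its part in these differences was not tested.

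**Figure D5:**
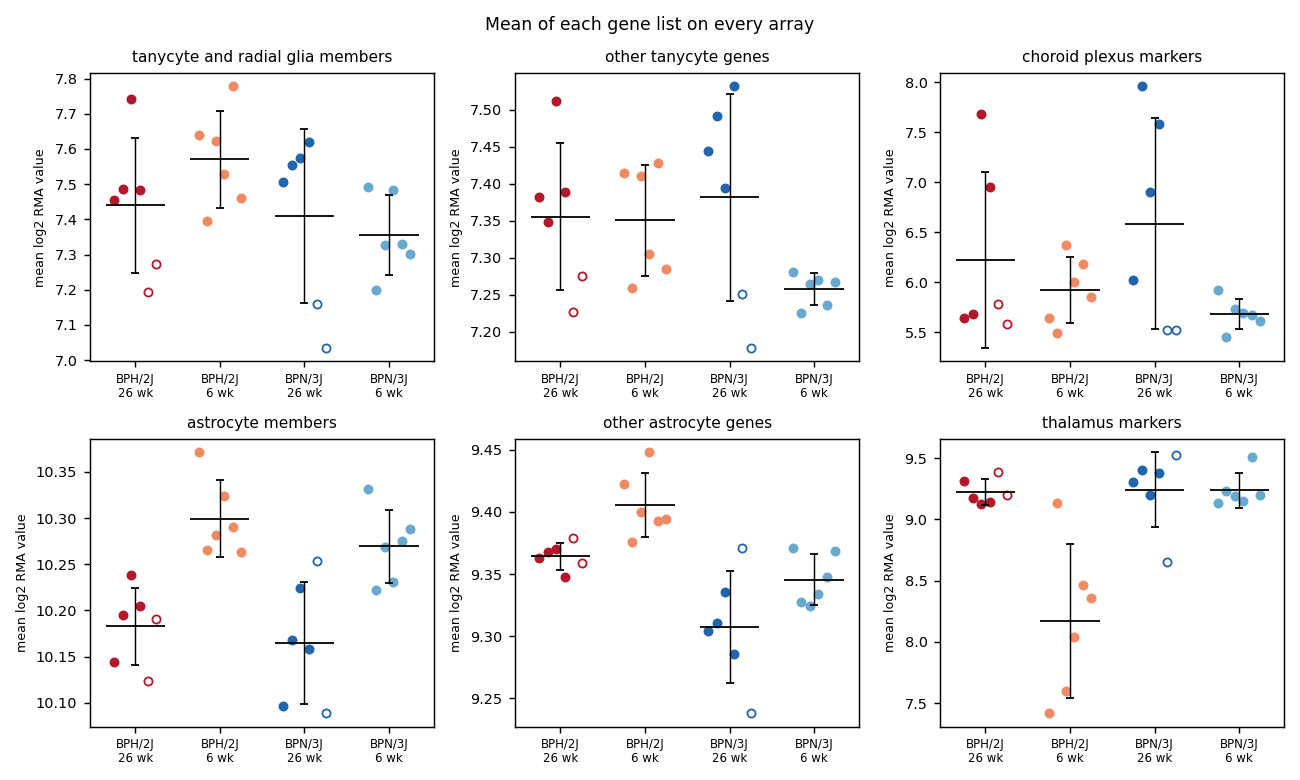
Mean log2 value of 6 gene lists on every array for 26-week BPH/2J, 6-week BPH/2J, 26-week BPN/3J and 6-week BPN/3J, with a bar at the mean and whiskers of 1 SD; open points are the 26-week replicates 5 and 6. The thalamus markers are low in 5 of the 6 arrays of 6-week BPH/2J, and the choroid plexus markers reach 7.68 in 26-week BPH/2J and 7.96 in 26-week BPN/3J.

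Markers of other cells and regions moved with some of the groups. These lists were chosen with earlier results of these data known, so the numbers of markers called are not independent evidence. Of the 16 thalamus markers 15 were called lower in BPH/2J than in BPN/3J at 6 weeks and 15 higher at 26 than at 6 weeks in BPH/2J; at 26 weeks 1 was lower in BPH/2J (Tnnt1, -0.97), and limma called 0 with age in BPN/3J, where 1 had an unadjusted p under 0.05. With the thalamus marker mean as a covariate limma called 0 of the 31 genes for strain at 6 weeks and 0 for age in BPH/2J, and it called 0.762% and 0.0401% of all genes; 3 and 5 of the 31 had an unadjusted p under 0.05. The strain differences at 6 weeks were then 1.66 ± 0.65 for Gpr50, 0.34 ± 0.19 for Rax and 0.22 ± 0.11 for Slc1a3. Without the covariate these standard errors were smaller, at 0.42, 0.12 and 0.07. The age differences in BPH/2J were -0.43 for Rax, -0.39 for Slc1a3, -0.47 for Fgfr3, -0.28 for Ntsr2, -0.23 for Slc7a10, -0.15 for Mlc1 and -0.08 for Nes. The 6-week calls between the strains and the age calls in BPH/2J cannot be told apart from this difference in thalamus marker RNA. The cause of that difference was not tested. For age in BPN/3J, where the thalamus marker mean differed by 0.01, the same covariate gave 7 calls, the 6 above and Mlc1 (-0.15, adjusted p = 0.0461), and called 12.7% of all genes.

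Of the 11 hypothalamus markers 1 was higher in BPH/2J at 26 weeks (Hcrt, 1.19) and 5 at 6 weeks (the first 4 by p being Nkx2-1 at 0.66, Ghrh at 0.75, Pmch at 0.70 and Pomc at 1.54). With age 5 fell in BPH/2J (the first 4 being Nkx2-1 at -0.72, Ghrh at -0.68, Hcrt at -1.09 and Hmx2 at -0.35) and 2 in BPN/3J (Hcrt at -1.29 and Hmx2 at -0.40). Of 12 choroid plexus markers 1 was higher in BPH/2J at 6 weeks (Mia), 1 rose (Otx2) and 1 fell (Mia) with age in BPH/2J, and 2 rose with age in BPN/3J (Clic6 and Cldn2). The Cldn2 means in BPN/3J, 4.58 at 26 weeks and 3.72 at 6 weeks, lay below the medians of the unnamed probe sets there. The choroid plexus mean was 6.59 ± 1.05 in 26-week BPN/3J, against 5.68 ± 0.15 in 6-week BPN/3J, and with it as a covariate 1 of the 31 genes, Slc7a10 at -0.32 (adjusted p = 0.0427 in limma), was called for age in BPN/3J, where 0.963% of all genes were called. The age calls of Slc1a3, Aldh1l1, Fgfr3, Apoe and Ntsr2 in BPN/3J were lost, and they cannot be told apart from this difference in choroid plexus marker RNA. Over all alternative fits, this covariate among them, the difference stayed at -0.29 to -0.26 for Slc1a3 and at -0.29 to -0.23 for Aldh1l1. It ran from -0.60 to -0.32 for Fgfr3, from -0.67 to -0.31 for Ntsr2 and from 0.19 to 0.40 for Apoe. Of 14 oligodendrocyte markers 7 at 6 weeks had lower values in BPH/2J (the first Trf at -0.77), 2 rose and 2 fell with age in BPH/2J, and 7 fell with age in BPN/3J (the first Cldn11 at -1.08). Of 7 oligodendrocyte precursor markers Lhfpl3 was lower in BPH/2J at 6 weeks (-0.25), and Gpr17 (-1.01 in BPH/2J and -1.02 in BPN/3J) and Olig1 (-0.22 and -0.45) fell with age in both strains. Of 12 neuron markers 4 at 6 weeks had lower values in BPH/2J (Snap25, Nefm, Nefl and Syt1), 3 rose with age in BPH/2J (Nefm, Snap25 and Elavl3) and 1 fell in BPN/3J (Eno2). Of 11 microglia markers C1qc was lower in BPH/2J at both ages (-0.55 at 26 and -0.81 at 6 weeks), C1qb was lower at 6 weeks, and P2ry12 and C1qb rose with age in BPH/2J. Of 9 endothelium markers Slco1a4 was higher in BPH/2J at both ages (0.66 at 26 and 0.52 at 6 weeks), and Abcb1a and Tek rose with age in BPH/2J. Of 10 ependyma markers Tekt1 was higher in BPH/2J at 6 weeks and Foxj1 fell with age in BPH/2J, and of 7 pituitary markers limma called 0 in each comparison. For these pituitary markers 1 gene at 6 weeks and 2 for age in BPH/2J had an unadjusted p under 0.05, and 0 in the other comparisons of strain or age. Of the 260 genes in these lists that are not among the 31, limma called 0 for the interaction, and 55 had an unadjusted p under 0.05. Among the 55 were all 16 thalamus markers. Of all 19937 genes 2160 had an unadjusted p under 0.05 for the interaction.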

How the data were processed

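RNA of single male hypothalami was measured on 24 arrays. The deposited values are on the log2 scale. The submitters' processing notes name RMA and limma, without versions, and a genome build is not given in the sources used here. RMA equalises the distributions of the arrays, so differences are relative to the other genes. Arrays carry no read depth, and the precision of a group mean depends on the number of arrays and on their spread.

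Titles of the samples supplied the groups and the replicate numbers. In 1 place the design text writes the normotensive strain with another substrain suffix; BPN/3J, as in the sample labels, is used. The platform annotation gave 1 symbol to 21640 of the 34760 probe sets, several to 1321 and none to 11799, which left 19937 genes, each taken from its brightest probe set on average. Limma 3.58.1 in R 4.3.3 fitted a mean per group over all arrays, with 20 residual degrees of freedom, moderated statistics and Benjamini-Hochberg adjustment within each of 5 comparisons over the 19937 genes at 0.05. The code was tested on simulated data. The labels give 6 separate mice per group, and no pair of arrays of a group was a duplicate, the smallest mean absolute difference being 0.12.

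The 31 genes and all gene lists were chosen with earlier results of these data known. Every member is named; those called, and Gfap, Slc1a2, Aqp4, Rax and Dio2, get values in every group. From the other lists up to 4 called genes per comparison were named, smallest p first, and for some marker lists fewer. The lists hold genes of astrocytes, tanycytes, reactive astrocytes, thyroid hormone, Notch signalling, glutamate and glutamine handling, and markers of neurons, hypothalamus, thalamus, oligodendrocytes and their precursors, microglia, endothelium, choroid plexus, ependyma and pituitary. Symbols of a list that were not found on the platform table were not analysed here.

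Same-numbered arrays of the strains deviated together at 26 weeks, with correlations of 0.13 to 0.44 for all 6 pairs. Arrays with different numbers were not compared across the strains, and replicates 5 and 6 of both strains stood apart. The correlations therefore do not show pairing by number. In the other comparisons not every pair was over 0.1: the correlations were 0.01 to 0.41 between the ages in BPH/2J, -0.10 to 0.05 between the ages in BPN/3J and -0.23 to 0.05 between the strains at 6 weeks. Alternatives were the groups compared alone, the mean of all probe sets of a gene, centring each array, a filter on dim genes, array weights, a trended robust prior, the replicate number as a block, the thalamus or choroid plexus marker mean as a covariate, and leaving out each array. A term for the 26-week replicates 5 and 6, leaving them out, and the other Glul probe set were added after seeing the data. Promoters are the 250 bases before RefSeq starts on GRCm38.p6; 25 of the 31 genes matched by symbol, and for 4 with several starts the first listed was used.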

Additional observations from a re-analysis of the deposited data

Results flagged for a closer look

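Among the 124 groups of 6 arrays that the 31 genes form, 7 had an array whose gap to the nearest other array, as a share of the group's range, was above the 95% limit of Dixon's test for 6 values; chance gives about 1 in 20 such groups. Of these, 3 belong to tanycyte and radial glia genes that vary widely: Crym was 8.85 in 26-week BPH/2J replicate 3, against a group median of 6.37, and Fabp7 was 9.91 in 6-week BPH/2J replicate 1, with the next at 9.13, and 8.46 in 26-week BPN/3J replicate 6, with the next at 9.28. Notch1 was 8.03 in 6-week BPH/2J replicate 3, with the next array at 7.73. Among the astrocyte genes Glul was 12.42 in 6-week BPH/2J replicate 2, with the next at 12.30, Aldoc was 13.07 in 26-week BPN/3J replicate 5, with the next at 12.94, and Clu was 11.87 in 6-week BPN/3J replicate 2, with the next at 11.92.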

How the results depend on the processing

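Of the 31 genes 1 was called between the strains at 26 weeks and 3 at 6 weeks, and 8 between the ages in BPH/2J and 6 in BPN/3J. These counts stayed within 1.5 times their size when a gene was the mean of its probe sets, when arrays were centred, when dim genes were left out (all 31 were kept) and with a trended robust prior. With only the groups compared, 0 were called by limma at 26 weeks, where Glul had an adjusted p of 0.0653, and 5 at 6 weeks; of all genes 248 and 2322 were called, against 532 and 1479 in the model of all arrays. Array weights gave 9 genes at 6 weeks, 14 with age in BPH/2J, 10 with age in BPN/3J, with 3725, 7475 and 6416 of all genes, against 1479, 3362 and 2445. The thalamus covariate gave 0 genes at 6 weeks and 0 with age in BPH/2J, with 152 and 8 of all genes, and turned Gfap there to 0.018. The choroid plexus covariate gave 1 gene with age in BPN/3J, with 192 of all genes. Added after seeing the data, a term for the 26-week replicates 5 and 6 gave 2 genes at 26 weeks, 6 at 6 weeks, 14 with age in BPH/2J, 13 with age in BPN/3J, with 881, 2200, 7479 and 7325 of all genes. Leaving those arrays out, also added, gave 2, 6, 14 and 14, with 536, 2460, 7843 and 6702 of all genes. The other Glul probe set, added as well, turned the age difference in BPN/3J to 0.20. The cause of these shifts was not tested.

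Leaving out 1 array at a time gave 1 to 2 genes at 26 weeks (2 without BPN/3J replicate 5), 1 to 4 at 6 weeks (1 without BPH/2J replicate 5), 6 to 9 with age in BPH/2J, and 5 to 9 with age in BPN/3J; of all genes it gave 428 to 721, 1034 to 1961, 2138 to 4838 and 1034 to 4230. The replicate number as a block treats same-numbered arrays as belonging together. With it the counts were 1 at 26 weeks, 4 at 6 weeks, 10 with age in BPH/2J and 7 with age in BPN/3J. Of all genes 550, 1556, 3883 and 3071 were called. The block added Gjb6 at 6 weeks (adjusted p = 0.0475 in limma), Gpr50 and Hes1 with age in BPH/2J (adjusted p = 0.0331 and 0.0427) and Mlc1 with age in BPN/3J (adjusted p = 0.0485). Same-numbered arrays are not shown to be paired in any comparison. The interaction was called for 0 of the 31 in each of these limma fits, while of all genes it was called for 0 to 683, against 6. Of 31 genes only Gpr50 came down to the level of unnamed probe sets, on 1 array, the array where that level was highest. Rax and Nes were also dim. On that array, 26-week BPN/3J replicate 6, Rax was 5.30, against a level of 5.25. Nes went down to 5.02 in 26-week BPH/2J, where the level was 4.60 to 4.79.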
